A study of Mus musculus with 2 samples.

Results

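Of the reads that long-read sequencing of mouse cerebral cortex placed in annotated genes, a minority were filed as Genomic. These reads overlapped a known gene but matched none of its spliced transcripts, and 98.3% of them in replicate 1 and 98.5% in replicate 2 lay in models of a single exon. The genes described here were chosen by their measured reads. A gene was kept when its Genomic models, added together, held 20 or more reads in each library. This gave 260 genes out of 10344 with any Genomic read and 18366 with any read. Their levels are therefore a description and carry no test.

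The mice were B6CASTF1/J males, the first-generation cross of the C57BL/6J and CAST/EiJ strains, and the left cerebral cortex was taken at 14 days of age. There was 1 group with 2 biological replicates, each a library from 2 µg of total RNA with ERCC and SIRV spike-ins, so no conditions could be compared. One donor identifier is given for the 2 samples and their descriptions mention several males, so each may be a pool. It is not stated that they came from separate animals. The p-values below set these samples against counting error only, so a difference between them may be technical. All 26 markers of cortical and other cell types that were looked up had reads in both libraries, among them Slc17a7, the vesicular glutamate transporter of cortical neurons, with 1060 and 1216. Summed reads of the 3 striatal markers were 614 in replicate 1 and 187 in replicate 2, and those of the 2 choroid plexus markers 30 and 232. Red blood cell markers summed to 166 and 396. The part of these cells in the results below was not tested.

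The class names are those of the TALON software for long reads. Known models match the splice chain of an annotated transcript, and ISM models (incomplete splice match) match part of such a chain. NIC models join annotated splice sites in new ways, and NNC models hold a splice site that is not annotated. Genomic models are what remains inside a known gene, chiefly reads in models of a single exon. Such a read shows no splice junction, which does not tell whether its RNA had been spliced elsewhere. In most mammalian genes the last exon carries the end of the coding sequence and the whole 3′ UTR, so a read that starts within it shows no splice junction. The hexamers AATAAA and ATTAAA are the usual signals for cleavage and polyadenylation, and lie shortly upstream of the end of an mRNA.

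Genomic models of known genes held 38607 of 775048 mouse reads in replicate 1, a share of 4.98% (95% Wilson interval 4.93% to 5.03%). In replicate 2 they held 52665 of 924222 mouse reads, or 5.70% (5.65% to 5.75%). The mean was 5.34% ± 0.507 (SD, n = 2). Intervals cover counting error only. The spike-ins, synthetic RNAs added to the samples, gave 0 Genomic reads of 7473 in replicate 1, which allows a share of up to 0.0401%, and 2 of 10830 in replicate 2. The 260 genes took 13349 (34.6%) and 18608 (35.3%) of all Genomic reads of known genes. The rest was spread thinly, and 55.1% and 53.4% of all Genomic models rested on a single read.

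The sequences below show where the Genomic models of the most abundant genes ended. The 3′ end of a model need not be that of its reads, whose own ends are not in the tables used here. The sequences are taken from the 8 genes with most reads at 1 shared 3′ end, of which 7 are shown. Each line gives the last 30 bases of the mRNA strand, 5′ to 3′, up to that end, as in the GENCODE M21 transcripts on mm10. Capitals mark AATAAA or ATTAAA.
Apoe, chr7:19696267-19696296, minus strand: ttgcttAATAAAgattctccgagcacattc
Cx3cl1, chr8:94782398-94782427, plus strand: tAATAAAattttaaagtcttgtgaATTAAA
Ndrg4, chr8:95714927-95714956, plus strand: gcagaaaaactAATAAAgaaattaagtcta
Slc25a5, chrX:36798778-36798807, plus strand: aaattgaagaAATAAAaatacccaaaacca
Ddn, chr15:98803777-98803806, minus strand: gcccAATAAAtctactcgcccctttatgca
Ncdn, chr4:126743750-126743779, minus strand: AATAAAtgtttattggtgatgagaagcctc
Ywhag, chr5:135908409-135908438, minus strand: acattgagcaaAATAAActtacagatctga
All 7 ends lay in an annotated 3′ UTR, and in each the first hexamer stood 13 to 24 bases before the end. The end of the remaining gene, Scamp5, lay in no annotated exon. Counted over all exonic Genomic reads of the 260 genes, 84.7% in replicate 1 and 87.2% in replicate 2 lay in a model with one of the hexamers within 50 bases before its end, on the transcript strand. For 90.4% and 90.8% of these reads the model end is exactly an annotated 3′ end, so the values describe annotated ends weighted by reads, not the ends of reads. Unweighted, the hexamers stood in 46.2% of 833 annotated 3′ ends of protein-coding transcripts of these genes and in 51.5% of 16085 such ends of the other tested genes. In consecutive 50-base windows of the protein-coding transcripts of the 260 genes they occurred in 2.12% of 60934. These windows leave out the last 50 bases of each transcript and include its coding part, so they are no background for 3′ ends alone. Read weights differ from counts of ends: of the exonic models with sequence, 74.8% and 76.0% held a hexamer.

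Apoe, the lipid carrier made chiefly by astrocytes, held more Genomic reads than any other gene. In replicate 1, 639 of its 3113 reads were Genomic (20.5%), and in replicate 2, 1389 of 4463 (31.1%). All of them sat in a single model of 354 bases, chr7:19696267-19696620 on mm10 in both libraries, with 31.9% of its bases in the 3′ UTR and no base in an intron. The spliced transcript Apoe-206 took 2405 and 2982 reads of the same gene. Genomic reads of Apoe thus stood beside an abundant spliced form.

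Cx3cl1 encodes fractalkine, a chemokine that neurons carry on their membrane. Its Genomic reads numbered 324 of 707 in replicate 1 (45.8%) and 439 of 953 in replicate 2 (46.1%), so the shares lay within each other's counting error. Ndrg4, a gene of the N-myc downstream-regulated family, had 326 of 2391 (13.6%) and 313 of 2276 (13.8%). Its single model was the same type in both libraries, with 28.3% and 28.0% of its bases in introns, and the rest in exons. Scamp5, a membrane protein of synaptic vesicles, was mostly Genomic, with 295 of 406 reads (72.7%) and 342 of 442 (77.4%). Its model, chr9:57440124-57442636 in replicate 1 and chr9:57440124-57443611 in replicate 2, ended 1203 bases beyond the annotated end of the gene.

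Dendrin (Ddn), a protein of dendrites and postsynaptic sites, was seen almost only as Genomic reads, 210 of 224 (93.8%) and 269 of 284 (94.7%). Its annotated spliced transcript Ddn-201 had 12 and 15 reads. Both 14-3-3 adaptor genes in the leading group differed in extent. Ywhag had 212 of 263 (80.6%) and 232 of 270 (85.9%), while Ywhaq had 127 of 876 (14.5%) and 231 of 1002 (23.1%). Slc25a5, the ADP/ATP carrier of the inner mitochondrial membrane, had 208 of 588 (35.4%) and 408 of 834 (48.9%), all in 1 model of 255 bases within the 3′ UTR. Neurochondrin (Ncdn), a neuronal protein linked to neurite growth, had 151 of 1409 (10.7%) and 307 of 1757 (17.5%). These genes spanned the range from a small to a dominant Genomic share although their Genomic read numbers were alike.

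**Figure D1:**
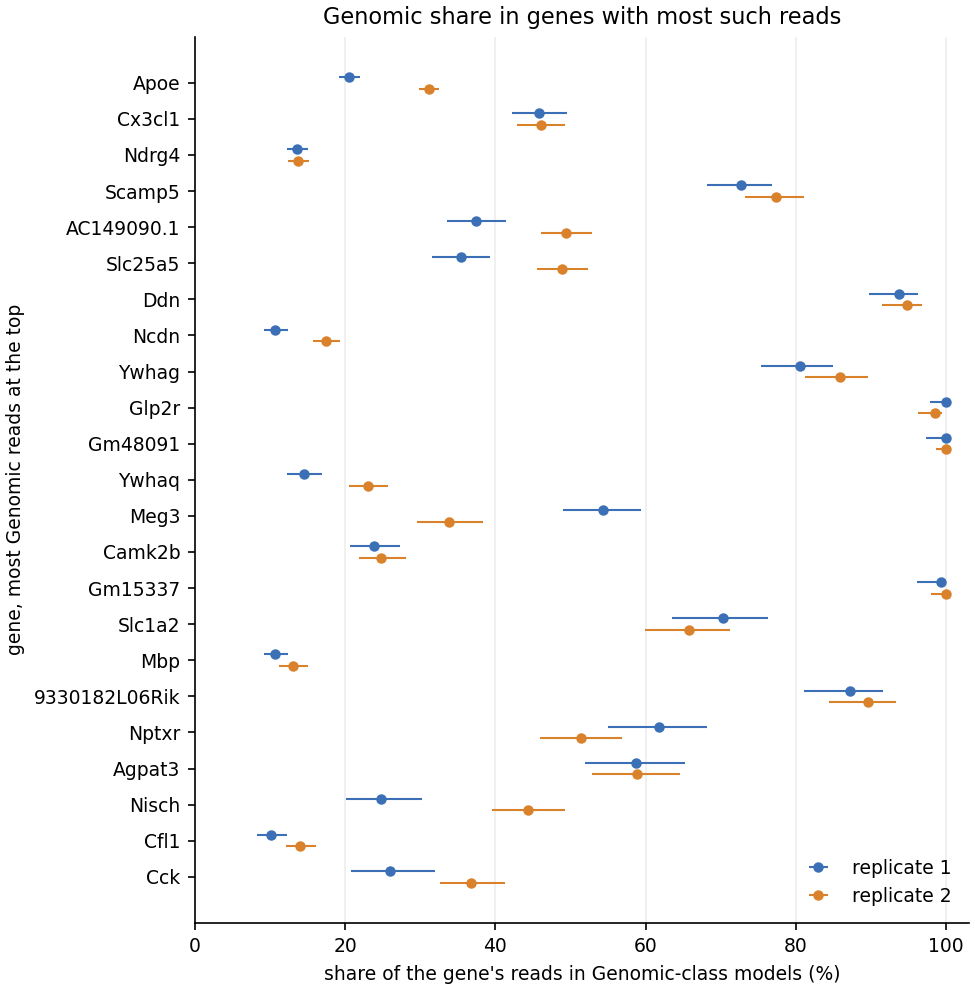
Share of each gene's reads (x axis, percent) that lay in Genomic models, for 23 of the 25 genes with most Genomic reads, ordered with the most at the top; points are libraries and bars are 95% Wilson intervals. Shares ran from 10.1% in Cfl1 in replicate 1 to 100% in Gm48091, and the libraries lay over 10 percentage points apart in Meg3, Nisch, Slc25a5, AC149090.1, Cck, Apoe and Nptxr, of which Cck and Nptxr were not called in the test between libraries.

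Over the 260 genes the mean share of reads in Genomic models ran from 0.719% to 100%, with a median of 42.9%. It was 50% or more in 113 genes, from 10% to under 50% in 122 and under 10% in 25. Among all 6178 tested genes, those with 20 or more reads in each library, the median share was 1.72%. The 260 genes are 4.21% of them. Across the 260 genes the shares in the 2 libraries had a Pearson's correlation of 0.967 and a Spearman's of 0.969. The rule asks for 20 Genomic reads in both libraries, and 551 genes reach 20 in at least 1, so genes that lose their Genomic reads in 1 library are left out and these values are in part set by the choice. Genes share library and depth and are no independent replicates. It differed by under 5 percentage points in 160 genes and by 10 or more in 43. The median SD over the 2 libraries was 2.77 percentage points.

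At the low end stood genes with many spliced reads. Ubb, a polyubiquitin gene, had 22 Genomic reads of 2979 (0.739%) and 23 of 3284 (0.700%). Nrgn, the calmodulin-binding postsynaptic protein neurogranin, had 22 of 1505 and 68 of 3258. Nell2, a secreted neuronal protein, had 26 of 659 and 26 of 770, and Prkcb, protein kinase C beta, had 27 of 712 and 30 of 777. With a minimum of 20 Genomic reads, a low share can only be seen in deeply read genes.

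At the high end, 13 genes had no other read than Genomic ones in either library. Gm48091, an antisense gene, gave 137 and 280 reads. Tcte1, a protein-coding gene, gave 76 and 146, and the antisense gene Gm20659 gave 66 and 129. The lincRNA 2310075C17Rik gave 82 and 88, and the antisense genes Gm26724 and Gm44151 gave 80 and 99, and 75 and 95. With 0 other reads the share still has a lower Wilson bound, 97.3% for Gm48091 in replicate 1 and 98.6% in replicate 2. Smaller genes were Gm16105 with 25 and 47, Gm26699 with 24 and 46, the protein-coding Ino80d with 27 and 34, Gm16185 with 27 and 31, Gm14066 with 20 and 36, Gm27200 with 23 and 20, and Gm20687 with 21 and 20. Of the 260 genes 243 were protein-coding, 10 antisense, 6 lincRNA and 1 a processed transcript. The 17 that were not protein-coding all had mean shares of at least 40.9%, and 14 of them lay over 90%. In 9 of the 10 antisense genes the leading model lay in an intron or beyond the annotated gene in both libraries. Whether the counting used strand is not stated in the sources used here, so reads of an antisense gene and its partner may not be separable.

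Among protein-coding genes, 17 had a mean share of 90% or more. Of these, 3 that were named after their values were seen encode proteins of synapses and growth control. Nlgn2, a postsynaptic adhesion protein of inhibitory synapses, had 67 of 67 and 121 of 122 reads. Cacng2, the AMPA receptor partner stargazin, had 49 of 49 and 60 of 63. Tsc1, a brake on mTOR signalling, had 35 of 36 and 48 of 50. Other reads of these 3 genes numbered at most 3 in a library.

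Most Genomic reads of the 260 genes lay within annotated exons. A model was called exonic when at least 95% of its bases lay in exons of its gene, intronic when at most 5% did, and spanning in between. Exonic models held 69.0% of the reads in replicate 1 and 71.0% in replicate 2, a mean of 70.0% ± 1.39 (SD, n = 2). Spanning models held 21.2% and 18.8%, and intronic models 7.75% and 7.45%. Models outside the annotated gene held 0.989% and 1.66%, and spliced Genomic models 1.09% and 1.16%. In the other genes the exonic share was 62.5% and 62.3%, and the intronic share was higher, at 12.8% and 13.7%. These differences between the 260 genes and the rest exceeded the spread between libraries and were not tested further.

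**Figure D2:**
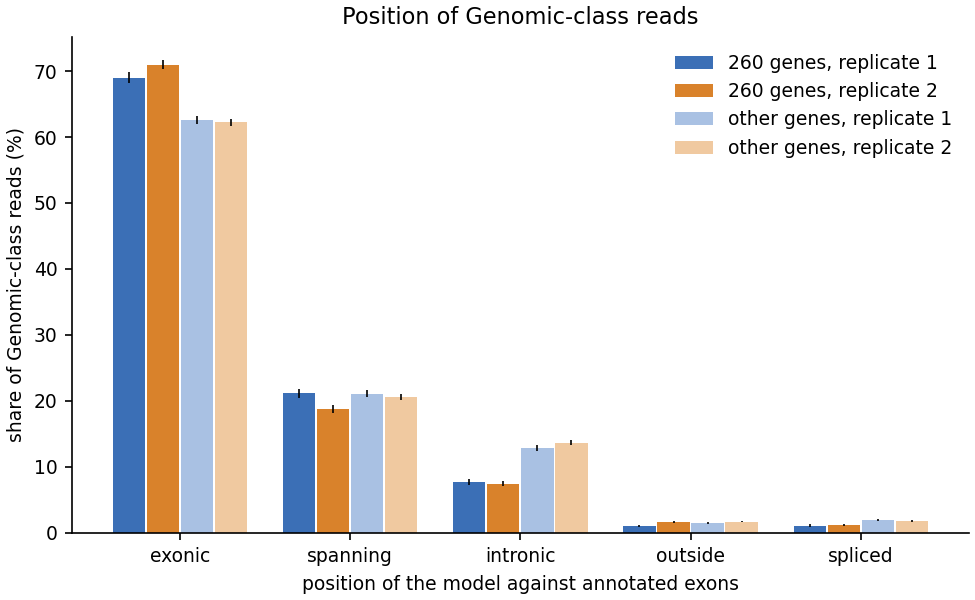
Share of Genomic reads (y axis, percent) by position of their model against annotated exons (x axis), for the 260 genes and for all other known genes in each library; bars are shares of reads and error bars are 95% Wilson intervals. Exonic models led in all 4 sets, at 69.0% and 71.0% in the 260 genes against 62.5% and 62.3% in the others.

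By reads, 67.3% ± 1.28 (SD, n = 2) of model bases in the 260 genes were 3′ UTR, 9.45% ± 1.80 were coding, 12.1% ± 0.412 intron and 7.13% ± 0.610 outside the gene. In 143 genes the leading model lay within the 3′ UTR for at least 95% of its bases in both libraries. Counted by gene, most Genomic reads were exonic in 191, spanning in 45, intronic in 15, outside in 4 and spliced in 2, and 3 had no majority. The exonic group had a median share of 41.5% and the spanning group of 43.4%. In the intronic group the median was 91.7%, and 9 of its 15 genes were protein-coding.

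A long 3′ UTR was common among these genes. In the 123 of them with 100 or more reads in each library, the longest annotated 3′ UTR had a median of 2239.5 bases over the 120 protein-coding ones. In 1363 other protein-coding genes of that depth it was 1127 bases. Annotated retained-intron transcripts were less frequent, in 52.8% against 65.5% of the genes. Reads of the gene in replicate 1 had medians of 223 and 174, so the groups also differed in depth, and its part was not tested.

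Genomic reads in introns were led by Glp2r, the receptor for glucagon-like peptide 2. It had 172 Genomic reads of 172 in replicate 1 and 266 of 270 in replicate 2. All but a few lay in 1 model of 1859 bases, chr11:67687132-67688990 on mm10, wholly intronic and identical in both libraries. Spliced Glp2r reads numbered 0 and 4. Nearly every read counted for Glp2r thus lay in 1 intronic model. Gm48091 had 136 and 278 of its reads in an intronic model, chr9:28920404-28921078 in replicate 1 and chr9:28920405-28921659 in replicate 2. Gm15337, an antisense gene, had 142 of 143 and 183 of 183. Gm20388 is annotated from 119910841 to 124345722 on chromosome 8 and had 83 of 102 and 97 of 127, scattered over 43 and 51 models.

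Other intronic genes had many spliced reads too. Prkcb kept its 27 and 30 Genomic reads in introns, at 3.79% and 3.86% of the gene. The leading model of Gm49325 lay entirely in exons of another gene, Sumo3, a small ubiquitin-like modifier, on the same strand, in both libraries. It had 25 of 28 and 32 of 34 reads in Genomic models. No other of the 260 genes had a leading model at least 50% in exons of another gene of its strand in both libraries.

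Spanning reads were led by Ndrg4, Scamp5, AC149090.1 and Cx3cl1. They divided between models that ran into an intron, with 53.4% of spanning reads in replicate 1 and 49.9% in replicate 2, and models that ran past the annotated gene, with 46.6% and 50.1%. Cx3cl1 was spanning in replicate 1 and exonic in replicate 2. Its model began at position 94778736 of chromosome 8 in replicate 1, with 16.6% of its bases in an intron, and at 94779638 in replicate 2, with none, and both ended at 94782427. AC149090.1, a protein-coding gene on an unplaced scaffold, had 219 of 585 (37.4%) and 409 of 827 (49.5%), and its model ended 1314 bases past the gene in replicate 1 and at its end in replicate 2. In Ubb 44 of 45 Genomic reads spanned, in models that ran through an intron. Mbp, myelin basic protein, had 152 of 1423 and 155 of 1188, and 295 of the 307 spanned.

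Spliced Genomic models were few. Gm44151 had 129 of 170 reads in them, and Rtl8c, a gene derived from a retrotransposon, had all 85. The model of Rtl8c, 687 bases long, was identical in both libraries, with 42.8% of its bases beyond the annotated gene. Fgf12, a fibroblast growth factor homologous gene, had 14 beside 26 spanning reads.

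The 3′ ends of the models recurred. Of the Genomic reads of the 260 genes, 86.1% in replicate 1 and 85.4% in replicate 2 had a model end within 25 bases of one in the other library. In the other genes the values were 56.3% and 51.7%. The 260 genes had to hold Genomic reads in both libraries and the others did not, so this difference is in part set by the choice of genes and is no finding. A gene with more reads also has more models to match. Recurrence was 90.7% and 89.9% for exonic reads, 59.1% and 58.8% for spanning reads, and 59.0% and 66.3% for intronic reads. The leading models ended within 25 bases of each other in 213 of the 260 genes and at the same base in 195. Their 5′ ends were within 25 bases in 101, and the median gap was 220.5 bases. In more genes, then, leading models shared their 3′ end than their 5′ end between libraries. For 71.8% and 72.6% of the Genomic reads of the 260 genes the model end was exactly an annotated 3′ end. Models set on the same annotated end match between libraries wherever their reads ended. The recurrence, and its difference from 5′ ends, therefore describes models and does not show that reads ended at the same place.

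**Figure D3:**
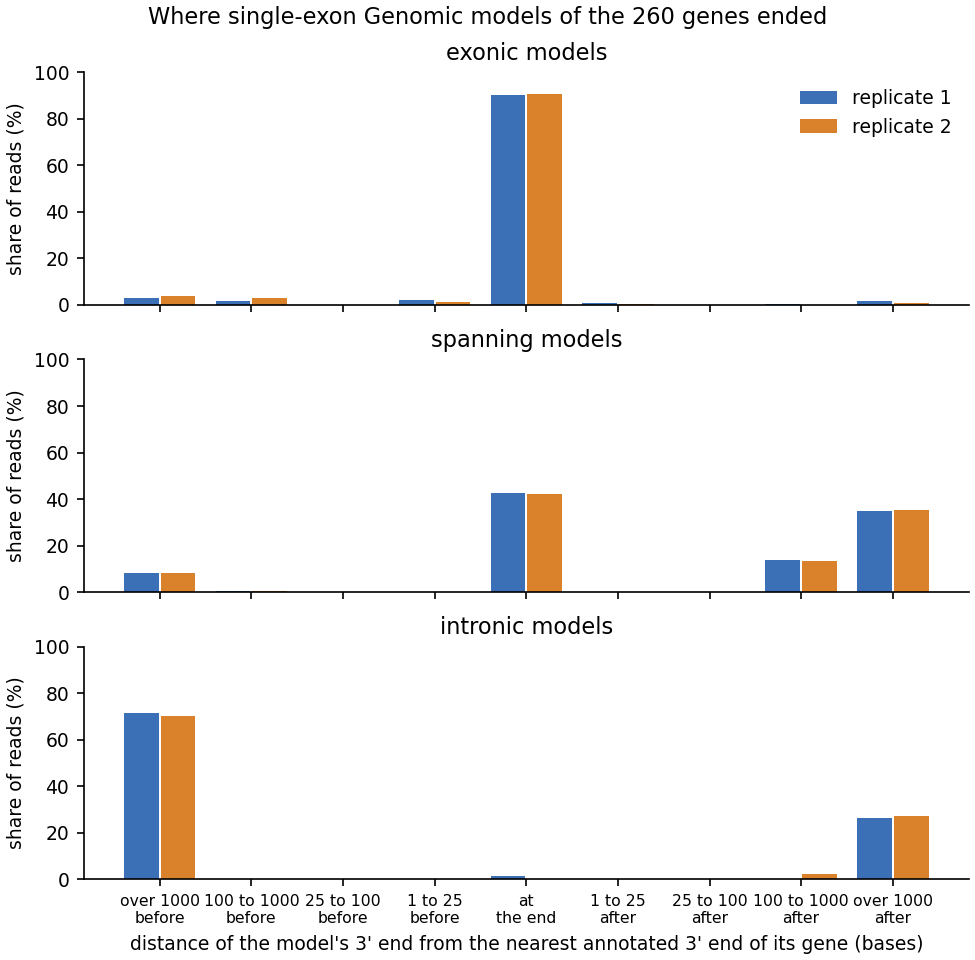
Share of single-exon Genomic reads of the 260 genes (y axis, percent) by the distance of the model's 3′ end from the nearest annotated 3′ end of the gene (x axis, bases, before or after it), for exonic, spanning and intronic models in each library. For 90.4% and 90.8% of exonic reads the model ended at the annotated end itself, and for 71.5% and 70.1% of intronic reads it ended over 1000 bases before one.

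Among exonic reads, 90.4% and 90.8% had a model whose 3′ end was exactly that of an annotated transcript of the gene. The values were 42.5% and 42.3% for spanning reads and 1.64% and 0% for intronic ones. The 5′ end fell exactly on an annotated exon boundary for 45.2% and 59.9% of reads. Of 19466 single-exon Genomic models, 338 overlapped another of the same gene and library. A model thus stands for a set of reads placed together. Among the 260 genes 95 had 1 model in each library, and the leading model held a median of 100% and 99.7% of a gene's Genomic reads.

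Some models were very short. The leading model of Abhd17a, which encodes a depalmitoylating enzyme, had 33 reads and 3 bases in replicate 1. In replicate 2 it had 129 reads and 776 bases, ran past the gene and shared the 5′ end. Lingo1, a neuronal membrane protein that restrains axon growth and myelination, had a leading model of 1 base with 20 reads in replicate 1, and one of 2695 bases with 56 reads in replicate 2. Models under 200 bases held 4.81% and 5.52% of the Genomic reads of the 260 genes and led in 27 of them in at least 1 library. For these 27 genes the position class of the leading model rests on under 200 bases in at least 1 library.

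Whether a gene's Genomic share differed between libraries was tested per gene on Genomic and other reads (Fisher's exact test, two-sided), with Benjamini-Hochberg adjustment over all 6178 tested genes. The test sets 2 libraries against counting error, not animals or conditions. It called 249 genes at an adjusted p under 0.05, a background of 4.03%, with 141 higher in replicate 2 (2.28%) and 108 lower (1.75%). Of the 260 genes 15 were called, 11 higher and 4 lower. Their median log2 odds ratio, replicate 2 over replicate 1, was 0.15, and that of the 4479 tested genes with a Genomic read was 0.20. The members had to hold 20 Genomic reads in both libraries, which keeps genes with a near-absence in 1 library out of them.

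**Figure D4:**
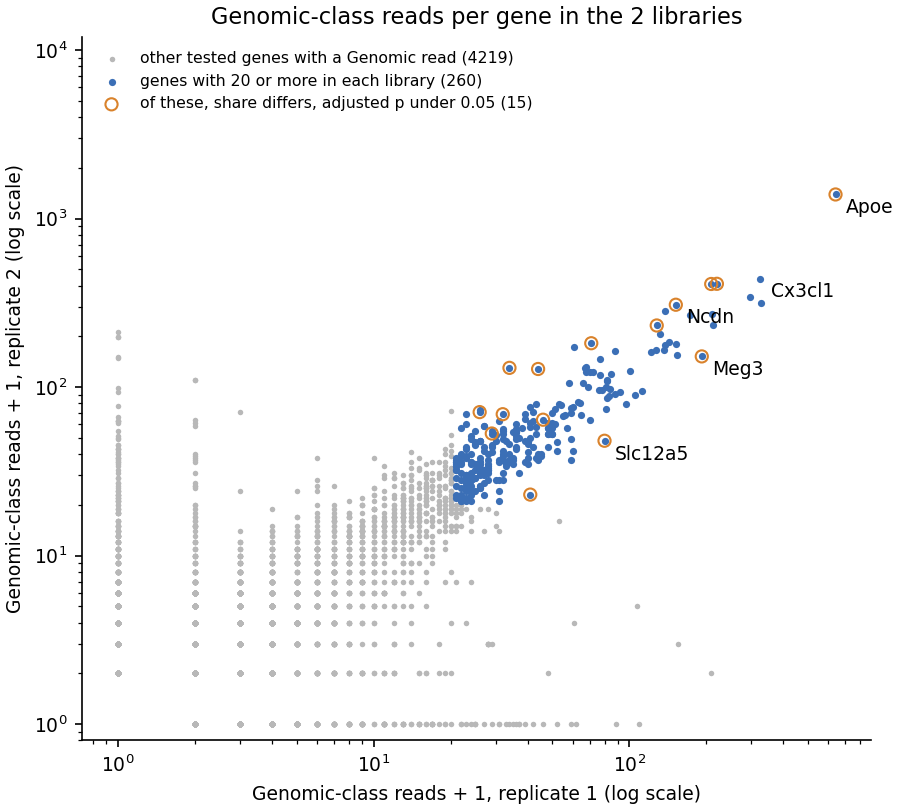
Genomic reads of each gene in replicate 1 (x axis, reads plus 1, log scale) and replicate 2 (y axis, likewise); grey points are the other tested genes with a Genomic read, blue points the 260 genes, and orange rings the 15 whose share differed. The blue points lie along the diagonal, with Apoe farthest at 639 and 1389 reads, and grey points line both axes where 1 library had no Genomic read.

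Among the genes with a higher share in replicate 2, Apoe went from 20.5% to 31.1% with a log2 odds ratio of 0.81 (95% interval 0.65 to 0.96, adjusted p = 1.84e-22, Fisher's exact test). Ncdn had a log2 odds ratio of 0.82 (adjusted p = 4.10e-06, Fisher's exact test). Abhd17a rose from 11.7% to 27.6%, and Nisch, the integrin-binding protein nischarin, from 24.8% to 44.4%, with 70 of 282 and 181 of 408 reads. Slc25a5 had an adjusted p of 2.22e-05 in Fisher's exact test. Ywhaq, Tmem132a, AC149090.1, Tubb4b, a beta-tubulin, and Ajm1 were also called. Genomic reads were also set against the shift over all tested genes in a binomial test, a setting chosen after the data were seen. It tests how a gene's Genomic reads divide between the libraries, and so calls less readily than Fisher's exact test at high shares. The part of this in the lost calls was not tested. In that binomial test Nisch (adjusted p = 0.0783), Ywhaq (0.158), Slc25a5 (0.767), AC149090.1 and Ajm1 (both 1) lost their call. Leading models of Apoe, Slc25a5, Tubb4b and Tmem132a were short, at 354, 255, 121 and 94 bases, and identical in both libraries.

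In the 4 genes with a lower share in replicate 2, reads in ISM models of a single exon were higher there. Slc12a5, the potassium-chloride cotransporter that sets neuronal chloride, had 79 Genomic reads of 81 (97.5%) in replicate 1 and 47 of 109 (43.1%) in replicate 2, with an adjusted p of 3.82e-15 in Fisher's exact test. Its single-exon ISM reads numbered 0 and 56, and Genomic and single-exon ISM reads summed to 97.5% and 94.5% of its reads. Meg3, an imprinted long noncoding RNA, fell from 191 of 352 (54.3%) to 151 of 446 (33.9%), with 0 and 89 single-exon ISM reads and sums of both kinds of 54.3% and 53.8%. Mef2c, a transcription factor of neuronal activity, fell from 20.1% to 7.72%, with 0 and 35 such reads and sums of 20.1% and 20.0%. Zbtb7a, a transcriptional repressor, fell from 45 of 46 to 63 of 81, with 0 and 9 such reads. None of these 4 was called on the sums, with adjusted p of 1 in each.

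**Figure D5:**
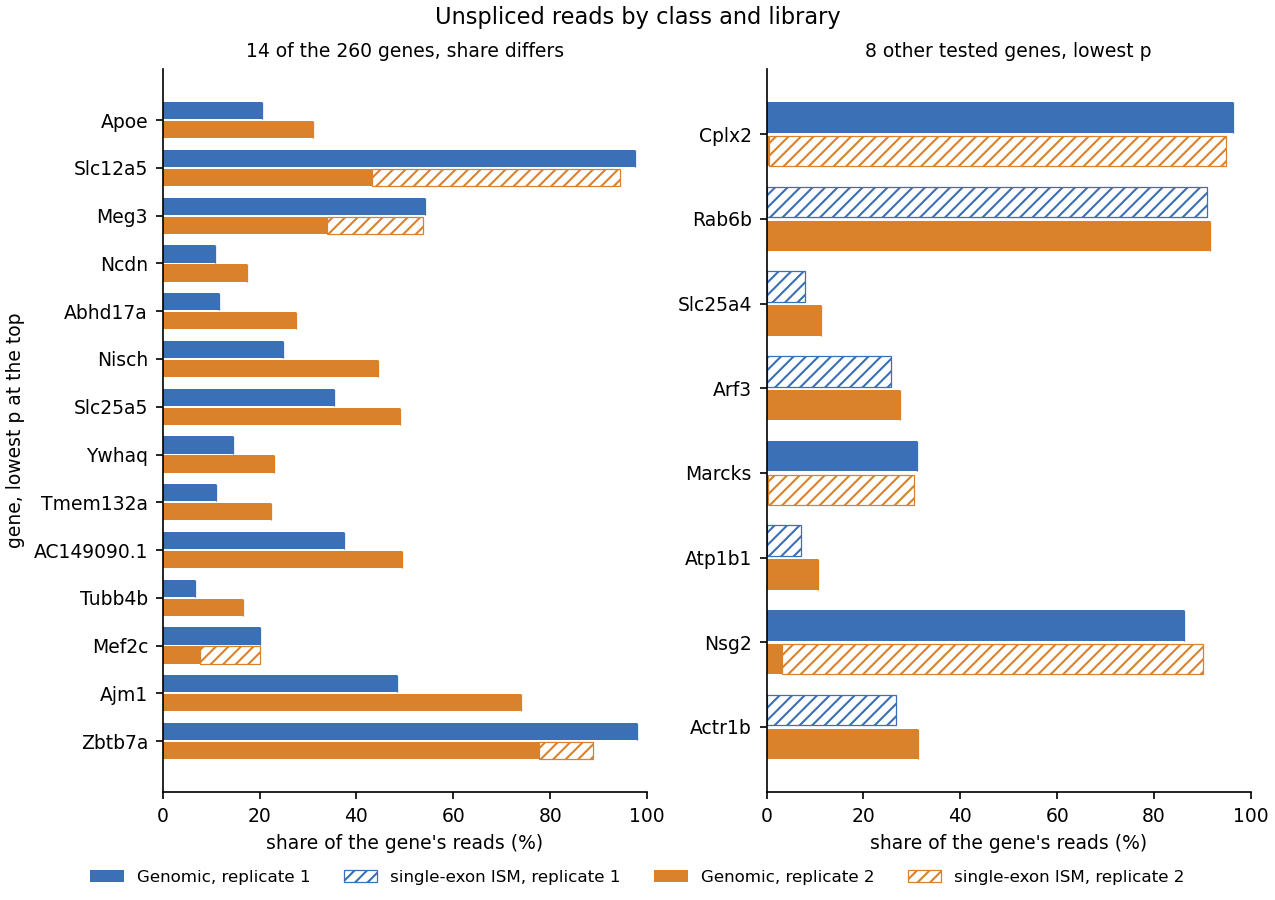
Share of a gene's reads (x axis, percent) in Genomic models (filled) and in single-exon ISM models (hatched) in each library, for 14 of the 15 genes whose Genomic share differed (left) and the 8 other tested genes with the lowest p (right). In Cplx2 and Rab6b the whole unspliced share, over 90%, is Genomic in one library and ISM in the other, and the summed bars are nearly equal.

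Summing Genomic and single-exon ISM reads was chosen after the data were seen. On the sums Fisher's exact test called 20 of 6178 genes (0.324%), 17 higher in replicate 2 and 3 lower, and 14 of them had been called on Genomic reads alone. Of the 260 genes 9 were called, all among the 15: Apoe, Ncdn, Abhd17a, Nisch, Slc25a5, Ywhaq, Tmem132a, AC149090.1 and Tubb4b, each higher in replicate 2. None of these 9 has a single-exon ISM read in either library, so their shares are the same on the sums by construction, and the sums do not test them. Ajm1 has none either and was lost by the adjustment alone, at an adjusted p of 0.251. Single-exon ISM reads were found in 34 of the 260 genes and reached 20 in 10 of them.

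Genes with Genomic reads in 1 library only are outside the 260 by the rule. Of the 234 other genes called, 212 had at most 1 Genomic read in 1 library. Across all genes, 100 had 20 or more Genomic reads in 1 library and at most 1 in the other, and in 70 of these the other library held 20 or more single-exon ISM reads while the first held at most 1. Complexin 2 (Cplx2), which binds the SNARE complex, had 207 Genomic reads in replicate 1 and 1 in replicate 2, and 0 and 234 single-exon ISM reads. Rab6b, a Golgi GTPase of neurons, had 0 and 196 Genomic reads and 140 and 0 single-exon ISM reads. On the sums 420 genes reach 20 reads in each library.

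Values near the threshold ran on without a break. Just inside stood Arhgdia, a GDP dissociation inhibitor, with 20 and 33 Genomic reads, and Clec16a with 20 and 25. Just outside stood Apc with 18 and 29, App, the amyloid precursor protein, with 19 and 18, and Arhgap23 with 19 and 20. In all, 51 genes had 18 or 19 in the lower library.

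Gene groups were described from lists chosen with earlier results known. None of 69 tested genes of cytoplasmic ribosomal proteins and none of 14 SR proteins and CLK kinases was among the 260, and their median Genomic shares were 0% and 0.685%, against 1.72% over all tested genes. Of 20 tested hnRNP and FET genes 1 was, the RNA helicase Ddx17, with 24 of 32 and 23 of 32 reads. No gene of the ribosomal and SR lists was called. The single call in the hnRNP and FET list (5%, against 4.03% over all tested genes) was not Ddx17. As the 260 genes are 4.21% of all tested genes, the counts in the SR list and the hnRNP and FET list lie near the overall shares.

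Among 18 synaptic vesicle and release genes, those among the 260 included complexin 1 (Cplx1) with 84 of 508 and 118 of 627, synaptobrevin 2 (Vamp2) with 63 of 854 and 79 of 1162, and Napb, an adaptor that recycles SNARE proteins, with 39 of 262 and 37 of 242. The 18 genes held 8 calls (44.4%, against 4.03% over all tested genes), 5 higher and 3 lower, none of them in these 3. On the sums Fisher's exact test called none of the 18. Among genes with 50 or more reads in each library, 223 of 3195 were called. Neither this list nor those below were matched to the tested genes in depth, and the part of depth in their calls was not tested. Of 16 tested glutamate receptor and scaffold genes 4 were among the 260. The NMDA receptor subunit Grin1 had 65 of 363 and 105 of 456, Shank2, a postsynaptic scaffold, had 28 of 31 and 54 of 61, and the kinase subunit Camk2b had 151 of 634 and 178 of 717. Nrgn was the fourth. This list held 5 calls (31.2%, against 4.03%), 2 higher and 3 lower in replicate 2, none in these 4, and 0 on the sums.

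Of 24 cytoskeletal genes 4 were included, the kinesin motors Kif1a with 68 of 110 and 99 of 164 and Kif5a with 62 of 278 and 81 of 338, the dendritic protein Map2 with 23 of 53 and 29 of 68, and Stmn2 with 37 of 523 and 56 of 567. Their Genomic shares were close in the 2 libraries, at 61.8% and 60.4% in Kif1a and 43.4% and 42.6% in Map2. The list held 10 calls (41.7%, against 4.03%), 3 higher and 7 lower, none in these 4. On the sums none of the 10 was called, and 1 other gene of the list was, the tubulin gene Tuba1a, lower in replicate 2.

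Of 10 astrocyte genes 3 were included: Apoe, and the glutamate transporters Slc1a2, with 137 of 195 and 177 of 269, and Slc1a3, with 22 and 27 Genomic reads (4.85% and 4.40%). The mean share was 68.0% ± 3.15 in Slc1a2 and 4.63% ± 0.312 in Slc1a3 (SD, n = 2), above and below the median of 42.9% over the 260 genes. The longest annotated 3′ UTR is 9322 bases in Slc1a2 and 2008 in Slc1a3. These are 2 genes only, and whether the share goes with this length was not tested. The astrocyte list held 3 calls (30%, against 4.03%), all higher in replicate 2. Apoe was the only included gene among them and the only one called on the sums. Of the myelin genes Mbp was included and not called. Among 6 tested nuclear long noncoding RNAs Meg3, Snhg11 with 91 of 131 and 92 of 145, and Miat with 77 of 98 and 95 of 121 were included. Only Meg3 was called, a single gene of the 6 (16.7%, against 4.03% over all tested genes). The calmodulin gene Calm3 was included, with 69 of 1258 and 122 of 1806.

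Further genes among the 25 with most Genomic reads were not called. Agpat3, an acyltransferase of phospholipid synthesis, had 121 of 206 (58.7%) and 160 of 272 (58.8%). Nptxr, the neuronal pentraxin receptor, had 126 of 204 (61.8%) and 164 of 319 (51.4%), with an adjusted p of 0.358 in Fisher's exact test. The actin-severing protein cofilin (Cfl1) had 87 of 863 and 163 of 1163. Cholecystokinin (Cck), a neuropeptide, had 60 of 231 (26.0%) and 173 of 470 (36.8%), with an adjusted p of 0.102 in Fisher's exact test. The protein-coding gene 9330182L06Rik had 136 of 156 and 164 of 183, in models that ended 3716 bases past the nearest annotated end.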

How the data were processed

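Long-read RNA sequencing was analysed in 2 libraries of 1 group. The deposited tables give counts of whole reads per transcript model, made by the authors for each library alone on mm10 with GENCODE M21 plus spike-in sequences, per the labels and the notes beside the files. No source used here gives the aligner, the counting settings or any version. Models with no read are not listed. Column totals were 782521 and 935052 reads, spike-ins included.

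Genomic reads were summed per gene. Model positions came from the deposited gene models and the GENCODE M21 annotation, in which 100% of the 18366 gene identifiers were found. Exonic models needed 95% of bases in exons of the gene, intronic ones at most 5%. Log2 odds ratios had 0.5 added to each cell, with 95% Wald intervals. With 1 library on each side edgeR has no residual degrees of freedom, so Fisher's exact test was used. Scripts used Python 3.11.15, SciPy 1.17.1, NumPy 2.4.6 and pandas 2.3.3, and were tested on simulated data.

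Genes named are the 25 with most Genomic reads, the 10 highest and 5 lowest shares, the 4 leading in each position class, up to 6 with the lowest adjusted p in each direction, up to 3 on each side of the threshold, the fixed lists, and the 8 with most reads at 1 shared 3′ end. Ends on chromosome 18 were left out of the last group. Ties at 100% were resolved by symbol. The genes, lists and rules were chosen with earlier results of these data known. Alternatives covered read minimums, denominators, position limits, end tolerance, the test and each library alone. A few genes that these rules name are not reported here.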

Additional observations from a re-analysis of the deposited data

Results flagged for a closer look

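Genomic reads were also found in gene models that are not annotated, which the comparisons above did not use. In replicate 1 there were 1726 such reads and in replicate 2 there were 2895, above the 3 counts that a count of 0 allows. Most lay in models filed as antisense to a known gene, with 1668 reads in 538 models and 2776 reads in 658 models. Models between genes held 58 and 119 reads. Single-read models made up 335 and 404 of the antisense ones.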

How the results depend on the processing

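The number of genes was 645 at 10 reads, 64 at 50 reads and 328 to 483 when 1 library was left out. The median share was 56.6% over Known and Genomic reads alone, 42.2% from models with 2 or more reads, 43.0% with single-exon ISM reads added, and 42.8% to 42.9% in a single library. The share of all mouse reads was 7.25% with single-exon ISM reads added and 4.98% to 5.70% in a single library.

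With limits of 80% and 20%, exonic reads were 72.2%, intronic reads 8.25% and spanning reads 15.0%. Intronic reads were 8.03% without retained-intron, processed and nonsense-mediated decay transcripts, and 7.84% without models under 200 bases. In a single library exonic reads were 69.0% to 71.0%, intronic 7.45% to 7.75% and spanning 18.8% to 21.2%. Recurrence of ends was 87.6% within 100 bases and 83.5% without models under 200 bases.

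Over Known and Genomic reads Fisher's exact test called 159 of 4821 genes, and Meg3 reversed, with a log2 odds ratio of 0.17. In this setting 4 more of the 15 called genes lost their call. They were AC149090.1, with a log2 odds ratio of 0.088, Tmem132a (adjusted p = 0.348, Fisher's exact test), Slc12a5 (0.352) and Zbtb7a (0.864). With single-exon ISM reads added, 20 of 6178 genes were called, 9 of them among the 260. Limited to genes with 20 such summed reads in each library, 20 of 420 were called, 11 of them among the 260. In the binomial test against the shift over all genes 229 of 6178 tested genes were called, 9 of them among the 260. The other settings of the test called 223 to 267 genes, 13 to 15 of them among the 260, but out of unlike numbers tested. They were 223 of 3195 at 50 or more reads in each library and 235 of 14631 at 1 or more. A chi-square test called 245 of 6178, and models with 2 or more reads gave 267 of 6178. Zbtb7a was lost in 6 of 7 alternatives that included it.

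The planned count of A-rich stretches after the ends was not run: no genome sequence was used here, and annotated exons covered the following 20 bases for 21.1% and 24.9% of exonic reads, too few for a check. Depth limits genes of about 20 reads to wide intervals. No paired analysis was possible because there is 1 group, and the replicate numbers pair no samples.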
